A study of Mus musculus with 31 samples.

Results

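Pzp, Pde6a, Inmt, Apoh and AA536875 are 5 genes of the mouse kidney that were picked by name for their near absence after cisplatin, and their rows were taken from a table of 55487 genes. All 5 passed the filter on low counts that left 19268 genes for testing. Because their own cisplatin and PBS values chose them, the difference between cisplatin and PBS kidneys is described here without a test, and only the comparisons between genotypes are tested. For Pzp, Pde6a, Inmt and AA536875 the cisplatin kidneys kept from 0% to 1.25% of the mean level in PBS kidneys on the scale used here. The data go against calling Apoh nearly silenced, since 12.5% of its PBS level was left in HET and 10.2% in WT kidneys.

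Kidney mRNA of male B6-background mice was sequenced in bulk, 1 library per animal number. The mice were HET or WT for Nbl1, whose secreted product blocks bone morphogenetic proteins, and received either cisplatin, a platinum compound used against tumours that is toxic to kidney tubules, or phosphate-buffered saline (PBS). The 4 groups were 8 HET cisplatin, 7 HET PBS, 8 WT cisplatin and 8 WT PBS libraries. Treatment began at 8 weeks of age and ran for 4 weeks, and kidneys were taken 3 days after it at a stated age of 11 weeks, which is less than these times add up to. Neither the kind of Nbl1 allele nor the cisplatin dose is stated. Libraries are numbered within their group, and a number pairs no animals across groups.

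Library totals, in counts divided by 1000000, ranged between 26.87 and 31.92 in HET cisplatin, 29.23 and 36.7 in HET PBS, 24.65 and 28.86 in WT cisplatin and 29.85 and 37.3 in WT PBS. Levels are given in CPM, counts per 1000000 counts of the library, scaled by TMM, a method that centres the bulk of the genes between libraries. Kidney identity was plain in each library: Lrp2, the endocytic receptor megalin of the proximal tubule, had at least 490 CPM. Nbl1 averaged 7.34 ± 4.7 CPM in HET cisplatin and 20.6 ± 4.8 CPM in WT cisplatin libraries (SD, n = 8 each), and 2.72 ± 1.7 CPM in HET PBS and 6.37 ± 1.3 CPM in WT PBS libraries (SD, n = 7 and 8). It went against the label in 5 libraries: HET cisplatin 3 and 4 and HET PBS 1 and 6, with Nbl1 at or under 1.08 CPM, and WT PBS 6, the lowest WT library at 3.71 CPM. Single cisplatin libraries also stood apart in other genes. HET cisplatin 6, WT cisplatin 6 and HET cisplatin 1 are described beside the residues and the liver genes, and values resting on them are given with and without them. The summed level of 8 adrenal and fat genes was 611.1 CPM in HET cisplatin 4 and lay between 7.4 and 62.6 CPM in the other HET cisplatin libraries. Pzp, Pde6a, Inmt and Apoh in HET cisplatin 4 were 0.416, 0.167, 3.05 and 0.722 CPM, and the part of adrenal or fat RNA in them was not tested.

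Pzp and Apoh encode proteins best known as products of the liver that circulate in plasma, Inmt encodes a methyltransferase that acts on small amines, and Pde6a encodes a catalytic subunit of the cGMP phosphodiesterase of rod photoreceptors. AA536875 is a long noncoding RNA whose function the annotation does not give. In the mouse kidney the proximal tubule, divided along its length into segments S1, S2 and S3, carries most reabsorption and drug transport, takes up cisplatin, and in males expresses many androgen-dependent genes.

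The bases just upstream of 1 RefSeq start site of each of 4 genes are shown because the genes were low together and these stretches are where a shared motif would first be looked for. No stretch is shown for Pde6a. They are RefSeq sequences on GRCm38.p6, 250 bases up to the base before that start, read 5′ to 3′ on the gene's own strand. Capitals mark matches to the motifs searched, on both strands. These were GTTAAT, part of the site of the liver and kidney factor HNF1, and AGAACA, part of the site of steroid hormone receptors. The core promoter motifs TATAAA and then CCAAT were also searched, as were CAAAGTCCA and, as a second form of the site of the factor HNF4, CAAAGGTCA.
Pzp: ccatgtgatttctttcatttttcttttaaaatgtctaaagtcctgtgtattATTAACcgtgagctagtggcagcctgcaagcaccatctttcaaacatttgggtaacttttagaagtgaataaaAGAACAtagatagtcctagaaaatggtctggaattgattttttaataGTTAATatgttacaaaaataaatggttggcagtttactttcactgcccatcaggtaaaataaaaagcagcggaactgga
Apoh: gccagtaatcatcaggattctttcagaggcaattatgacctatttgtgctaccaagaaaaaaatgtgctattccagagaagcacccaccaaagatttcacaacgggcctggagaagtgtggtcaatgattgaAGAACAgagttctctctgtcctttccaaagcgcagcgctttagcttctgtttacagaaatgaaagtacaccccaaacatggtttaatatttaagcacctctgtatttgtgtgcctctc
Inmt: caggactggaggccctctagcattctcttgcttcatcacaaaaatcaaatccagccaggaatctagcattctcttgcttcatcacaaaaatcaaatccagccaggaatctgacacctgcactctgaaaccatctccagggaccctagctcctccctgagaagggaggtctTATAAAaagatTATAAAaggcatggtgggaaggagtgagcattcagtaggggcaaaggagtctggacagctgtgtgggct
AA536875: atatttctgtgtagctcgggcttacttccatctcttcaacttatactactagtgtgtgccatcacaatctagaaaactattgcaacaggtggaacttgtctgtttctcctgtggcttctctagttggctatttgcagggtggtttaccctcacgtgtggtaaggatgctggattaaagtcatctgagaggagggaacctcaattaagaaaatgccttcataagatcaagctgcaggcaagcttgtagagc

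The Pzp stretch lies at chr6:128526721-128526970 on the minus strand, Apoh at chr11:108395047-108395296 on the plus strand, Inmt at chr6:55174991-55175240 on the minus strand and AA536875 at chr14:123168936-123169185 on the plus strand. The AA536875 stretch lies inside the RefSeq span of the gene, which begins upstream of it at base 123168503, and the Apoh stretch lies inside the GENCODE span. Pzp held the HNF1 motif 2 times, ending 74 bases upstream of the start in the forward direction and 194 bases upstream in the reverse direction, a motif present in 6.43% of 32851 RefSeq promoter windows of this length. AGAACA stood 121 bases upstream of Pzp and 113 bases upstream of Apoh, and 16.1% of the windows hold it. Inmt carried TATAAA at 75 and at 64 bases upstream, against 12.4% of windows with at least 1 match. No motif was common to the 4 stretches, and AA536875 matched none of those searched. CCAAT (33.8% of windows) and both HNF4 forms (0.384% and 0.426%) matched in none of the 4. The share of G and C was 33.6% for Pzp, 42.0% for Apoh, 48.0% for Inmt and 43.6% for AA536875, all under the median of 52.4% over the windows. A match describes letters only.

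Pzp encodes pregnancy zone protein, a protease inhibitor of the alpha-2-macroglobulin family, and spans bases 128483567 to 128526720 of chromosome 6 on the minus strand (GRCm38, GENCODE M21). In HET kidneys, the lowest, median and highest Pzp levels were 0, 0.241 and 0.737 CPM after cisplatin, against 148, 194 and 237 CPM after PBS. In WT kidneys they were 0, 0.0917 and 0.886 CPM after cisplatin, against 158, 198 and 220.5 CPM after PBS. Every cisplatin library lay far under every PBS library: the lowest PBS value was 200 times the highest cisplatin value in HET and 178 times in WT. How many of all tested genes have groups apart in this way was not counted. Cisplatin and PBS kidneys differed in 59% of all tested genes in HET and 63.2% in WT by edgeR's quasi-likelihood test, and since this contrast chose the 5 genes nothing is read from their place in it. The 8 HET cisplatin libraries held 82 Pzp counts in all, against 39788 in the 7 HET PBS libraries, and the 8 WT cisplatin libraries held 56, against 46049 in the 8 WT PBS libraries. Per unit of depth this was 640-fold lower after cisplatin in HET and 860-fold lower in WT. The fitted log2 fold changes were -9.30 (SE 0.39) in HET and -9.72 (SE 0.40) in WT, the second lowest value among the 19268 genes in each genotype. That place comes from the values that chose the gene and tests nothing.

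Apoh encodes apolipoprotein H, also called beta-2-glycoprotein I, which binds phospholipids in plasma. GENCODE places it at bases 108343354 to 108414396 of chromosome 11 on the plus strand, and RefSeq starts it at base 108395297. After cisplatin its lowest, median and highest levels were 0.155, 0.789 and 2.66 CPM in HET kidneys, against 4.23, 7.57 and 11.3 CPM after PBS. In WT kidneys they were 0.230, 0.330 and 2.44 CPM after cisplatin, against 5.35, 7.06 and 8.14 CPM after PBS. The groups did not overlap, but the gap was narrow, with the lowest PBS value 1.59 times the highest cisplatin value in HET and 2.2 times in WT. As for Pzp, these values chose the gene, and the share of all genes with groups apart was not counted. The fitted log2 fold change was -3.01 (SE 0.43) in HET and -3.28 (SE 0.44) in WT, place 186 and place 194 when all genes are ordered from the lowest value. These places describe values that chose the gene and test nothing. The annotated span of Apoh overlaps Prkca on the opposite strand, which had 23.9 ± 5.39 CPM in HET cisplatin, 38.9 ± 2.76 CPM in HET PBS, 26.3 ± 4.35 CPM in WT cisplatin and 36.5 ± 2.15 CPM in WT PBS libraries. The strand setting of the counting is not stated, so reads of the overlap cannot be told apart.

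Inmt encodes indolethylamine N-methyltransferase, which transfers methyl groups to tryptamine and related amines, and lies at bases 55170626 to 55175043 of chromosome 6 on the minus strand. In HET kidneys its lowest, median and highest levels were 2.49, 4.06 and 27.0 CPM after cisplatin, against 506, 559.9 and 587 CPM after PBS. In WT kidneys they were 2.74, 4.17 and 6.91 CPM after cisplatin, against 450.2 and 593 CPM at the lowest and highest after PBS, where the middle pair of libraries had 567 and 569 CPM. Unlike Pzp, Inmt was read in all 16 cisplatin libraries, between 2.49 and 6.91 CPM in 15 of them, with HET cisplatin 6 far above the rest. The fitted log2 fold change was -6.33 (SE 0.39) in HET and -6.93 (SE 0.40) in WT, and the pooled counts were 82.9-fold lower after cisplatin in HET and 123-fold lower in WT.

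Pde6a, the gene of the alpha subunit of the rod phosphodiesterase, spans bases 61220315 to 61289924 of chromosome 18 on the plus strand. Its lowest, median and highest levels in HET kidneys were 0, 0.0451 and 0.448 CPM after cisplatin, against 14.7, 16.8 and 21.04 CPM after PBS. In WT kidneys they were 0, 0.0158 and 0.0891 CPM after cisplatin, against 16.8, 19.5 and 24.4 CPM after PBS. The gene had no read in 3 of 8 HET cisplatin and 4 of 8 WT cisplatin libraries, while no PBS library was under 14.7 CPM. The pooled counts were 25 after cisplatin and 3450 after PBS in HET, 182-fold lower (95% interval of the percentage left, 0.355% to 0.813%), and 8 and 4594 in WT, where 0.166% was left (0.0718% to 0.328%). The intervals, exact for the sums of counts, cover counting error only. The fitted log2 fold changes were -7.44 (SE 0.33) in HET and -9.06 (SE 0.37) in WT.

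AA536875 lies on the plus strand of chromosome 14, where GENCODE gives bases 123043282 to 123265002 under another symbol, matched by identifier, and RefSeq gives bases 123168503 to 123176176. It was the only 1 of the 5 with 0 counts in all 16 cisplatin libraries. In HET PBS libraries its lowest, median and highest levels were 0.451, 0.668 and 1.01 CPM, and in WT PBS libraries 0.618, 1.63 and 3.68 CPM. Taking 3 counts per group as the limit of detection, equal to 0.0113 CPM in HET cisplatin and 0.0122 CPM in WT cisplatin, it was at least 63.7-fold lower after cisplatin in HET and at least 170-fold lower in WT. These bounds are smaller than the folds of Pzp because AA536875 had only 145 counts in HET PBS and 486 in WT PBS libraries to begin with.

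**Figure D1:**
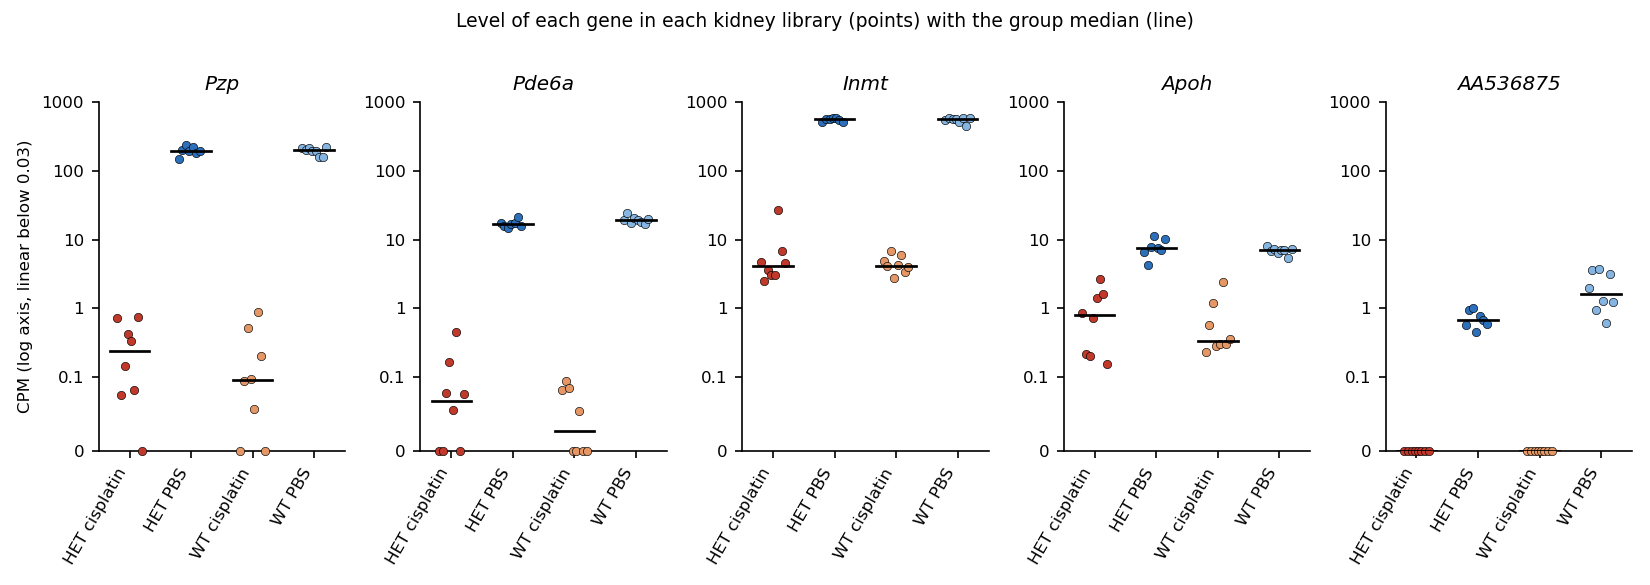
Level of each gene in CPM (log axis, linear below 0.03) in every library of the 4 groups, with points for libraries and a line at the group median. Cisplatin points lie below all PBS points of the same genotype in each panel, with the narrowest gap for Apoh, where the lowest HET PBS value is 1.59 times the highest HET cisplatin value. These values chose the genes, so the gaps are no test, and the share of all tested genes with groups apart was not counted.

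Bulk RNA cannot tell fewer cells of a type from less RNA per cell, and this holds for each level given here. Per transcript length, in TPM, which adds up to 1000000 over all transcripts of a library, the order in PBS kidneys was Inmt, Pzp, Apoh, Pde6a and AA536875 in both genotypes, with means of 390.2, 26.0, 4.88, 2.40 and 0.669 TPM in HET and 398, 26.6, 4.42, 2.77 and 1.20 TPM in WT. The ranges of neighbours in this order were apart for Inmt and Pzp and for Pzp and Apoh in both genotypes. They met for Apoh and Pde6a in HET PBS (2.74 to 7.27 and 2.13 to 2.78 TPM) and in WT PBS (3.25 to 5.19 and 2.24 to 3.48 TPM). Pde6a and AA536875 were apart in HET PBS, where AA536875 had 0.33 to 1.09 TPM, and met in WT PBS, where it had 0.54 to 2.29 TPM. After cisplatin the order was Inmt, Apoh, Pzp, Pde6a and AA536875, with means of 6.51, 0.838, 0.0713, 0.0288 and 0 TPM in HET and 4.43, 0.613, 0.0650, 0.0138 and 0 TPM in WT. There Inmt was apart from Apoh in both genotypes, while the ranges of Apoh and Pzp, and of Pzp and Pde6a, met in both. The mean of Pzp stood above that of Apoh in PBS kidneys and under it in cisplatin kidneys. Together the 5 genes took 0.000916% ± 0.00095 of all counts in HET cisplatin, 0.0665% ± 0.0044 in HET PBS, 0.000624% ± 0.00024 in WT cisplatin and 0.0676% ± 0.0061 in WT PBS libraries (SD, n = 8, 7, 8 and 8).

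The residue left by cisplatin differed in size and in which kidneys carried it. On average 0.157% ± 0.15 of the PBS mean of Pzp was left in HET and 0.117% ± 0.162 in WT kidneys (SD, n = 8 each). For Pde6a it was 0.561% ± 0.899 in HET and 0.164% ± 0.193 in WT, for Inmt 1.25% ± 1.49 in HET and 0.821% ± 0.246 in WT, and for Apoh 12.5% ± 11.2 in HET and 10.2% ± 11.0 in WT. The SD was close to the mean or above it for each except Inmt in WT. HET cisplatin 6 had the most Inmt, Pde6a and Apoh of its group, at 27.0, 0.448 and 2.66 CPM, against at most 6.72, 0.167 and 1.63 CPM in the other 7. Its Pzp, however, was 0.064 CPM, sixth of 8. WT cisplatin 6 had the most Pzp and Apoh of its group, at 0.886 and 2.44 CPM, against at most 0.521 and 1.18 CPM in the other 7, but its Inmt and Pde6a took places 2 and 4 of 8.

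Without HET cisplatin 6 the share left was 0.265% for Pde6a and 0.729% for Inmt in HET, and without WT cisplatin 6 it was 0.069% for Pzp and 6.64% for Apoh in WT. Leaving out each HET cisplatin or HET PBS library in turn, HET cisplatin 1 included, put the share of Pzp in HET between 0.126% and 0.18%. Both kidneys had the most Lrp2 of their group, 2684 CPM in HET cisplatin 6, against 490 to 2054 CPM in the rest, and 2871 CPM in WT cisplatin 6, against 564 to 1622 CPM in the rest. They parted in Havcr1, which encodes the tubular injury marker KIM-1: HET cisplatin 6 had the lowest level of its group at 31.6 CPM, and WT cisplatin 6 the highest at 438 CPM. They did not part in the sum of 12 tubular injury genes. It was the lowest of the group in both, at 3415 CPM in HET cisplatin 6 and 6416 CPM in WT cisplatin 6. HET cisplatin 6 also had the lowest level of Kap, the androgen-regulated kidney protein, at 169 CPM. The part of these differences between kidneys in the residues was not tested.

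**Figure D2:**
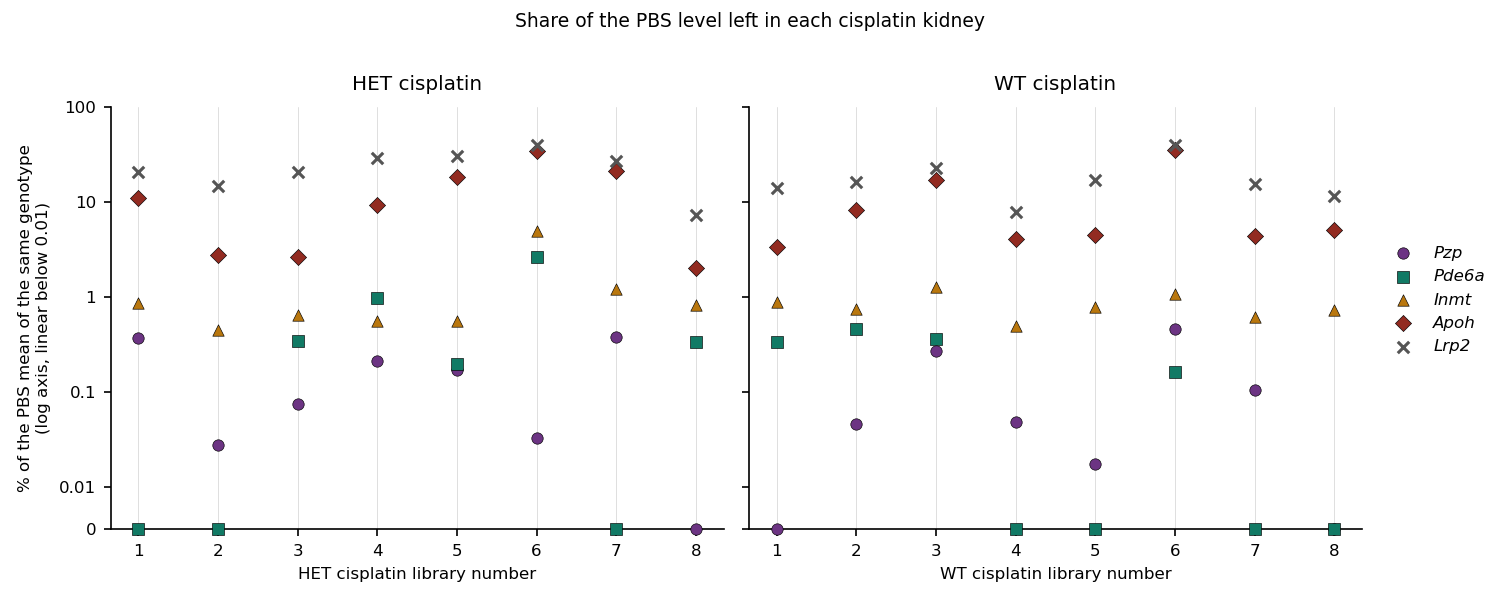
Percentage of the PBS mean of the same genotype left in each cisplatin library (log axis, linear below 0.01) for Pzp, Pde6a, Inmt, Apoh and, for comparison, Lrp2; points on the lower edge are libraries with 0 counts, where those of Pzp and Pde6a coincide in WT cisplatin 8. Library 6 is highest for Apoh and Lrp2 in both panels, while its Pzp is sixth of 8 in HET and first in WT.

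The genotype comparisons ask whether the level of the 5 genes depends on Nbl1, and no genotype difference was part of the choice. The genes were chosen for low cisplatin values in both genotypes, however, which limits the comparison of HET cisplatin with WT cisplatin and the interaction. None of the 4 genes with reads after cisplatin differed between HET cisplatin and WT cisplatin kidneys by edgeR's quasi-likelihood test, in which 0.00519% of all genes, 1 gene, passed an adjusted p of 0.05. That gene, Htr6, is a serotonin receptor gene and was named after its values were seen. Htr6 had at least 0.243 CPM in every HET library. It had at most 0.0677 CPM in every WT library except WT PBS 6, at 0.756 CPM, whose Nbl1 also went against its label. The log2 difference of HET from WT was 0.43 (SE 0.58, adjusted p = 0.943) for Pzp, 0.45 (SE 0.47, adjusted p = 0.928) for Apoh, 0.61 (SE 0.33, adjusted p = 0.886) for Inmt and 1.43 (SE 0.72, adjusted p = 0.886) for Pde6a, by the same edgeR test. The HET and WT ranges overlapped for each of the 4. Nbl1 itself, at 7.34 CPM in HET cisplatin and 20.6 CPM in WT cisplatin libraries, was not called either. A gene not called here can therefore still differ between the genotypes. Without HET cisplatin 6 the difference was -0.17 for Inmt, 0.47 for Pde6a and 0.046 for Apoh, so these differences rested on that kidney. Without HET cisplatin 1 it was 0.116 for Pzp. Without WT cisplatin 6 it was 1.21 for Pzp and 1.07 for Apoh, both not called. Without the 5 libraries against their Nbl1 label the differences were 0.47 for Pzp, 0.69 for Apoh, 0.84 for Inmt and 1.32 for Pde6a.

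Under PBS none of the 5 passed the same test, as none of all genes did (0%, with 968 genes at an unadjusted p under 0.05, 5 called by DESeq2, none of them among the 5 described here, and 0 called by limma voom). Nbl1, at 2.72 CPM in HET PBS and 6.37 CPM in WT PBS libraries, was thus also not called by edgeR. The log2 differences of HET from WT were 0.0087 (SE 0.25) for Pzp, 0.17 (SE 0.39) for Apoh, 0.0069 (SE 0.31) for Inmt and -0.20 (SE 0.21) for Pde6a, each with an adjusted p of 1 by edgeR. AA536875 was the furthest from 0, at -1.53 (SE 0.37), with an adjusted p of 0.595 by edgeR and between 0.146 and 1 over the alternatives. It averaged 0.713 ± 0.204 CPM in HET PBS and 2.06 ± 1.24 CPM in WT PBS libraries (SD, n = 7 and 8). All 7 HET values lay under the WT mean and 3 of 7 under every WT value, and the groups overlapped.

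The WT PBS libraries were themselves uneven for AA536875. WT PBS 1, 2, 4 and 7 had 2.0, 3.56, 3.68 and 3.2 CPM, while WT PBS 3, 5, 6 and 8 had 0.944, 1.27, 0.618 and 1.23 CPM. WT PBS 6, whose Nbl1 went against its label, was the lowest of the 8, and without the 5 libraries of that kind the log2 difference was -1.59 (SE 0.40, adjusted p = 0.838 by edgeR). The deposited TPM gave a smaller gap, 0.669 ± 0.288 in HET PBS and 1.20 ± 0.587 in WT PBS libraries, a ratio of 0.558 against 0.346 in CPM. The CPM of this gene per deposited TPM varied 3.09-fold over the HET PBS and 1.91-fold over the WT PBS libraries, against at most 1.29-fold for the other 4 genes.

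**Figure D3:**
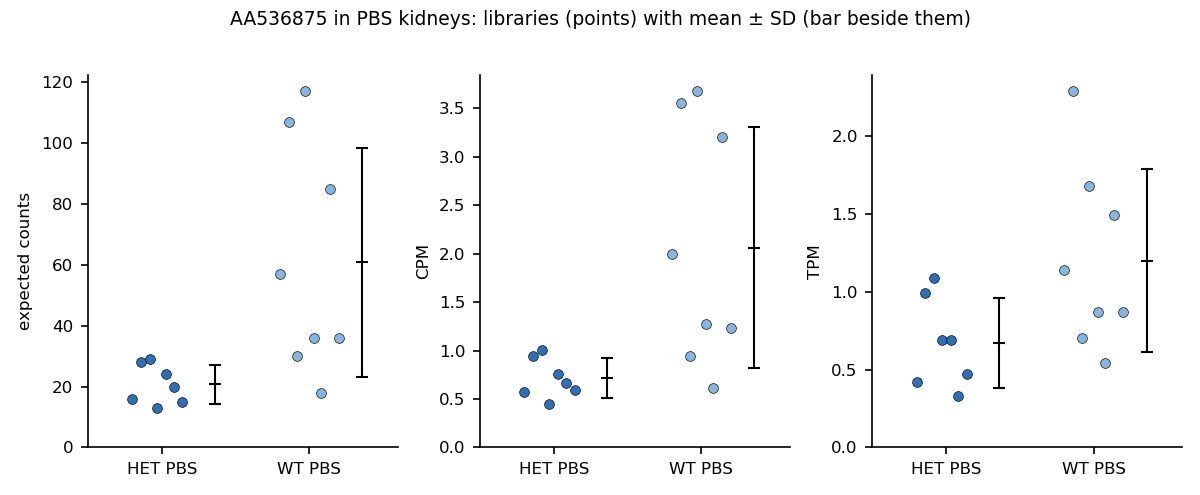
AA536875 in the 7 HET PBS and 8 WT PBS libraries in expected counts, in CPM and in TPM, with points for libraries and the mean ± SD beside them. The HET points lie between 0.451 and 1.01 CPM, and 3 of the 7 lie under the lowest point of the WT range of 0.618 to 3.68 CPM, and the groups are closer in TPM.

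The interaction, the cisplatin response in HET less that in WT, was 0.42 (SE 0.63) for Pzp, 0.27 (SE 0.61) for Apoh, 0.60 (SE 0.46) for Inmt and 1.62 (SE 0.75) for Pde6a on the log2 scale, with adjusted p between 0.88 and 0.972 by edgeR. No gene passed this test (0% of all genes, with 1079 at an unadjusted p under 0.05 and 0 called by DESeq2 or limma voom). AA536875, at 0 counts in both cisplatin groups, has no interpretable value here.

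Relatives and partners of the 5 genes were counted for comparison, in lists that leave out the 5 themselves. In HET kidneys 31% of all tested genes were called higher and 28% lower after cisplatin by edgeR, and in WT kidneys 33.6% higher and 29.6% lower. With library totals in place of TMM scaling, the median log2 fold change of all genes was 0.464 in HET and 0.455 in WT, against 0.0591 and 0.0612 under TMM. The share of lower calls among all calls was then 16.7% in HET and 19.5% in WT, against 47.4% and 46.9% under TMM. Higher calls numbered 11992 in HET and 11831 in WT with library totals, against 5981 and 6469 under TMM. Lower calls numbered 2400 and 2862, against 5393 and 5705. Counts of higher and of lower genes therefore both depend on the scaling.

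Of 6 tested relatives and partners of Pzp in the alpha-2-macroglobulin family, 3 rose and 2 fell after cisplatin in each genotype, and their median log2 fold change was 0.351 in HET and 0.513 in WT. C3, the central complement component and a distant member of the family, rose by 4.84 (SE 0.20) in HET and 5.13 (SE 0.19) in WT on the log2 scale. Lrp1, the receptor that clears complexes of these inhibitors with proteases, rose by 0.77 (SE 0.13) in HET and 0.78 (SE 0.13) in WT, and C4a, a complement component, had log2 fold changes of -1.34 (SE 0.30) in HET and -1.68 (SE 0.29) in WT. C4b had log2 fold changes of -0.072 (SE 0.27) in HET and 0.24 (SE 0.26) in WT, and since both genes are near-identical copies the split of reads between them is uncertain. The close relative A2m also fell, with log2 fold changes of -1.61 (SE 0.43) in HET and -1.92 (SE 0.42) in WT. Per length, A2m averaged 0.0814 TPM in HET PBS and 0.106 TPM in WT PBS libraries. Mug1 and Mug2, other murine family members, were at or under 0.0262 TPM in each group. These levels were far under the 26.0 TPM of Pzp in HET PBS and 26.6 TPM in WT PBS libraries.

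Of the partners of Pde6a in the rod enzyme, Pde6b and Pde6g were almost unread. Pde6b, the other catalytic subunit of rods, had 0 counts in HET cisplatin, 4 in HET PBS and 0 in each WT group. Pde6g, the inhibitory subunit of rods, averaged between 0.203 and 0.305 CPM over the 4 groups. Pde6d, which binds the prenyl groups of the catalytic subunits and is expressed in many tissues, averaged 10.8 CPM in HET cisplatin, 12.2 CPM in HET PBS, 10.8 CPM in WT cisplatin and 13.8 CPM in WT PBS libraries. Its log2 fold change was -0.166 (SE 0.084, adjusted p = 0.0905 by edgeR) in HET and -0.355 (SE 0.082, adjusted p = 0.000344) in WT. Among 13 tested PDE6 subunits and other cGMP phosphodiesterases, 5 rose and 3 fell in HET, and 5 rose and 5 fell in WT, with median log2 fold changes of 0.112 in HET and -0.033 in WT. With library totals 8 rose and 2 fell in HET and 6 rose and 2 fell in WT, with medians of 0.52 and 0.368. Pde1a, which hydrolyses cGMP and cAMP under calmodulin, had log2 fold changes of -0.53 (SE 0.096) in HET and -0.52 (SE 0.093) in WT, and Pde9a, specific for cGMP, had -0.89 (SE 0.16) in HET and -0.93 (SE 0.15) in WT. Pde2a, which cGMP activates, had 0.112 (SE 0.20) in HET and 0.052 (SE 0.20) in WT and was not called in either.

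Of 12 tested genes that make or sense cGMP, 3 rose and 4 fell in HET, and 2 rose and 5 fell in WT, against 8 higher and 2 lower in HET and 7 higher and 3 lower in WT with library totals. Gucy1a1, a subunit of the nitric oxide receptor guanylate cyclase, rose by 0.94 (SE 0.14) in HET and 0.61 (SE 0.13) in WT. Of the natriuretic peptide receptors, Npr3, which clears the peptides, had log2 fold changes of -0.333 (SE 0.11) in HET and -0.561 (SE 0.11) in WT, both called. Npr2 had -0.12 (SE 0.07) in HET, not called, and -0.198 (SE 0.067) in WT, called, and Npr1 had 0.162 (SE 0.075) in HET and 0.038 (SE 0.072) in WT, called in neither. Gucy2f, a guanylate cyclase of photoreceptors, held 1 count in HET cisplatin, 89 in HET PBS, 0 in WT cisplatin and 70 in WT PBS libraries. Of 13 rod photoreceptor markers, 6 were tested, with 2 higher and 0 lower in HET and 3 higher and 0 lower in WT. Their summed level was 9.19 to 12.6 CPM in HET cisplatin, 6.88 to 9.11 CPM in HET PBS, 8.17 to 10.8 CPM in WT cisplatin and 7.16 to 8.19 CPM in WT PBS libraries, and Prph2 and Pdc were at 0 counts in all groups.

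Small-molecule methyltransferases, the enzyme group of Inmt, were mostly lower: of 12 tested, 9 fell and 1 rose in HET, and 8 fell and 1 rose in WT, with median log2 fold changes of -0.886 and -1.09. The log2 fold change of Mettl7a1 was -1.41 (SE 0.12) in HET and -1.48 (SE 0.12) in WT. Mettl7b, a thiol methyltransferase, had -1.42 (SE 0.25) in HET and -1.83 (SE 0.24) in WT, and Tpmt, the thiopurine methyltransferase, had -1.04 (SE 0.10) in HET and -1.12 (SE 0.099) in WT. The supply of methyl donors and of tryptophan products also held mostly lower genes, with 10 of 12 tested genes lower and 1 higher in HET and 9 lower and 1 higher in WT, or 6 lower in HET and 7 in WT with library totals. Ahcy, which removes the product of methylation reactions, had log2 fold changes of -1.52 (SE 0.19) in HET and -1.74 (SE 0.18) in WT, and Mat2a, which makes S-adenosylmethionine, had -0.89 (SE 0.12) in each. The lowest log2 fold change among the listed methyltransferases was -1.65 in HET and -1.83 in WT, against -6.33 and -6.93 for Inmt.

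Apolipoproteins and related plasma proteins, the group of Apoh, split: of 16 tested, 8 rose and 4 fell in each genotype, with median log2 fold changes of 0.451 in HET and 0.34 in WT. Clu, a secreted chaperone also known as apolipoprotein J, rose by 1.59 (SE 0.16) in HET and 2.05 (SE 0.15) in WT, and Apoe rose by 1.13 (SE 0.12) and 1.49 (SE 0.12). Apom, which carries sphingosine-1-phosphate in lipoproteins, had log2 fold changes of -2.32 (SE 0.37) in HET and -3.23 (SE 0.39) in WT.

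**Figure D4:**
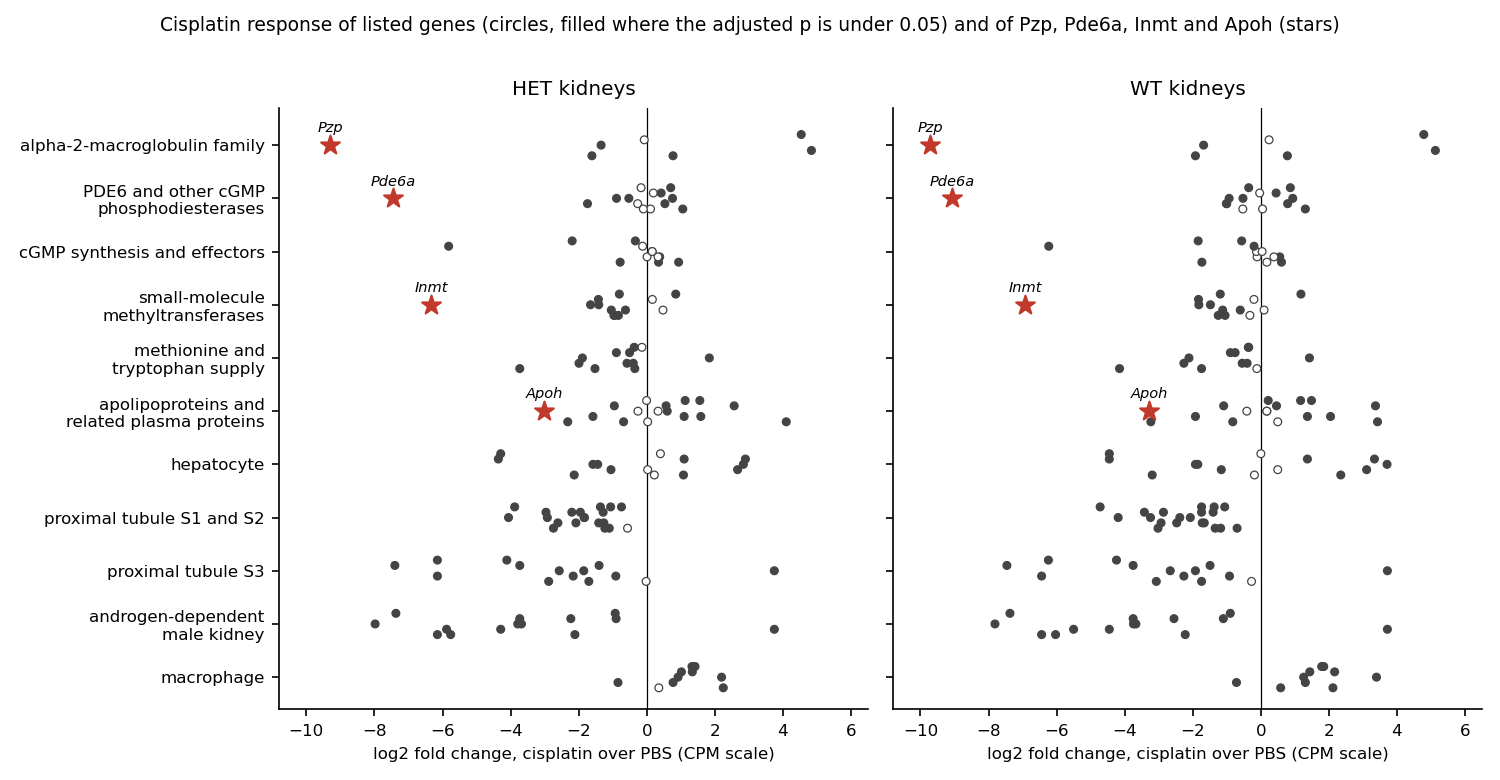
Log2 fold change of cisplatin over PBS for the tested genes of 11 lists (circles, filled where the adjusted p was under 0.05) and for Pzp, Pde6a, Inmt and Apoh (stars), in HET and WT kidneys. Each star lies to the left of every circle of its own list, Apoh by the least, at -3.28 in WT against -3.23 for Apom. The starred genes were chosen for low values in this contrast, so their place on the left is no test.

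Markers of other cell types were read beside these values. Because Pzp and Apoh are known as liver products, 20 hepatocyte genes were summed: 245 to 563 CPM in HET cisplatin, 1622 to 2061 CPM in HET PBS, 258 to 530 CPM in WT cisplatin and 1634 to 1996 CPM in WT PBS libraries. Of the 14 tested, 5 rose and 6 fell in each genotype, and several were read at high levels in these kidneys. Cyp2e1, Ttr and Serpina1d had means of 1517, 64.7 and 163 CPM in HET PBS and 1496, 74.9 and 155 CPM in WT PBS libraries. Cyp2e1 thus made up most of the PBS sums. It averaged 77.3 CPM in HET cisplatin and 68.4 CPM in WT cisplatin libraries, so the lower sums rested mainly on it. Serpina1a was not called in either genotype, and Fga rose by 1.08 (SE 0.37) in HET and 2.35 (SE 0.37) in WT. Cyp2e1 also stands in the androgen-dependent list. Alb, the defining product of hepatocytes, averaged 1.84 ± 3.3 CPM in HET cisplatin and 8.1 ± 1.6 CPM in HET PBS libraries, and 0.913 ± 0.73 CPM in WT cisplatin and 8.44 ± 3.8 CPM in WT PBS libraries (SD, n = 8, 7, 8 and 8). Per length, Alb had 2.67 TPM in HET PBS and 2.84 TPM in WT PBS libraries, under Pzp and under Inmt, and Mup3 had 3 counts in HET cisplatin, 0 in HET PBS, 0 in WT cisplatin and 48 in WT PBS libraries. The highest Alb level of all was 17.5 CPM, in WT PBS 2. HET cisplatin 1 had the most Alb of the cisplatin kidneys, 9.94 CPM against at most 1.04 CPM in the rest of its group, and its Pzp was 0.714 CPM, second in its group. The part of liver RNA in these levels was not tested.

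Proximal tubule genes were lower in the same kidneys. Of 20 S1 and S2 markers, 19 fell in HET and 20 in WT, with median log2 fold changes of -1.84 and -1.91, and of 14 S3 markers 12 fell in each genotype, with medians of -2.36 and -2.46. Among the S3 markers Slc7a13, an amino acid transporter gene, had log2 fold changes of -7.40 (SE 0.62) in HET and -7.46 (SE 0.62) in WT, and Acsm3, an acyl-CoA synthetase gene, had -6.15 (SE 0.34) in HET and -6.44 (SE 0.34) in WT. Cyp4b1, a cytochrome P450 gene, had -3.73 (SE 0.21) in HET and -3.75 (SE 0.20) in WT, and Napsa, an aspartic protease gene, had -0.908 (SE 0.14) in HET and -0.919 (SE 0.13) in WT. Slc7a12, another transporter gene of the S3 list, rose by 3.75 (SE 0.39) in HET and 3.72 (SE 0.37) in WT. The S1 and S2 markers summed to between 3318 and 15872 CPM in HET cisplatin and 29692 and 33906 CPM in HET PBS libraries, and to between 3463 and 14746 CPM in WT cisplatin and 28357 and 31631 CPM in WT PBS libraries. Of 14 genes listed here as androgen-dependent in the male mouse kidney, 13 fell in each genotype, with medians of -3.76 in HET and -3.74 in WT. The 1 that rose, Slc7a12, had the lowest PBS means of the list, 2.48 CPM in HET and 2.6 CPM in WT. Its dependence on androgen was not tested, so its rise is not read as an exception among androgen-dependent genes. The list summed to 704 to 1344 CPM in HET cisplatin and 23615 to 27486 CPM in HET PBS libraries. In WT the sums were 835 to 1664 CPM in cisplatin and 23249 to 26491 CPM in PBS libraries. Macrophage genes moved the other way, with 8 of 10 higher in HET and 9 of 10 in WT, and their sum was 50.7 to 244 CPM in HET cisplatin, 102 to 138 CPM in HET PBS, 143 to 335 CPM in WT cisplatin and 101 to 123 CPM in WT PBS libraries. Cyp4b1, Acsm3 and Slc7a12 stand in both the S3 and the androgen-dependent list.

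Other segments and cell types were read as well. All 8 distal convoluted tubule markers fell in each genotype, with median log2 fold changes of -1.12 in HET and -0.90 in WT, and Pvalb, a calcium-binding protein of that segment, had -6.27 (SE 0.52) in HET and -6.80 (SE 0.54) in WT. Of 8 thick ascending limb markers, 6 fell and 2 rose in each genotype, with medians of -0.55 in HET and -0.761 in WT, and Egf, a growth factor gene of that segment, had -3.62 (SE 0.35) in HET and -4.07 (SE 0.35) in WT. With library totals 6 of the 8 distal markers fell in HET and 5 in WT, and 3 and 4 of the thick ascending limb markers. All 10 endothelial markers fell in each genotype, with medians of -0.372 in HET and -0.439 in WT, but with library totals 3 were higher and 2 lower in HET, and 2 higher and 5 lower in WT, with medians of 0.0281 and -0.0453. Of 11 collecting duct markers, 4 rose and 2 fell in HET, and 5 rose and 2 fell in WT. Of 7 podocyte markers, 3 rose and 2 fell in HET, and 2 rose and 2 fell in WT. Of 9 fibroblast markers 7 rose in HET and 5 in WT with none lower, and all 12 tubular injury genes rose in each genotype, with medians of 3.29 in HET and 3.9 in WT. The part of any of these groups in the levels of the 5 genes was not tested.

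Genes whose levels ran most like each of the 5 over the 31 libraries were searched among 15262 genes. The measure was the root mean square (RMS) difference of log2 CPM from the PBS mean of the same genotype. The cisplatin fall that chose the 5 weighs most in this measure. Near genes with a large fall therefore follow from the choice, and their place in a list is not read as shared control. Nearest to Pzp were Gm6300 (RMS 1.11), Slco1a1 (1.14) and Slc22a28 (1.38), of which Slco1a1 and Slc22a28 encode transporters and are among the androgen-dependent genes listed. Nearest to Pde6a were Slc22a7 (0.995), Slc7a13 (1.04) and Acsm3 (1.09), all 3 among the S3 markers. Slc22a7 was also nearest to Inmt (0.61), followed by Hrg (0.87), a plasma glycoprotein gene, and Fcamr (0.876), an Fc receptor gene. Among the 3 nearest to Apoh were Cndp1 (0.559), a dipeptidase gene, and Azgp1 (0.585). AA536875 ran closest to Gm44435 (0.514), Gm44433 (0.605) and Gm29012 (0.638), which are named only by their symbols. Gm6300 averaged 0.0141 CPM in HET cisplatin and 42.8 CPM in HET PBS libraries, and 0.0158 CPM in WT cisplatin and 50.5 CPM in WT PBS libraries, the 1 gene with a lower fitted fold change than Pzp in each genotype.

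The genes beside the 5 on the chromosome were compared next. Of the 30 tested neighbours, 3 on each side of each gene, 15 fell, 5 rose and 10 were not called in HET, and 15 fell, 3 rose and 12 were not called in WT, with median log2 fold changes of -0.318 and -0.348, against 0.0591 and 0.0612 over all genes. The lowest neighbour was Clec2h, a C-type lectin gene next to Pzp, at -2.59 (SE 0.43) in HET and -3.32 (SE 0.44) in WT. The highest was Arhgef37, beside Pde6a, at 1.18 (SE 0.17) in HET and 1.85 (SE 0.17) in WT. Next to Inmt, Aqp1, which encodes the water channel of the proximal tubule, had log2 fold changes of -0.78 (SE 0.16) in HET and -0.81 (SE 0.15) in WT, while Gars and Nod1 had fold changes between -0.07 and 0.099 in HET and between -0.033 and 0.011 in WT. The antisense gene Gm10069 within Pzp averaged 1.23 ± 0.168 CPM in HET cisplatin, 1.67 ± 0.386 CPM in HET PBS, 1.53 ± 0.471 CPM in WT cisplatin and 1.43 ± 0.393 CPM in WT PBS libraries. The pseudogene Rps2-ps10 within Pde6a averaged 1.69 ± 0.467, 1.54 ± 0.370, 1.81 ± 0.527 and 1.58 ± 0.477 CPM in the same order of groups.

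**Figure D5:**
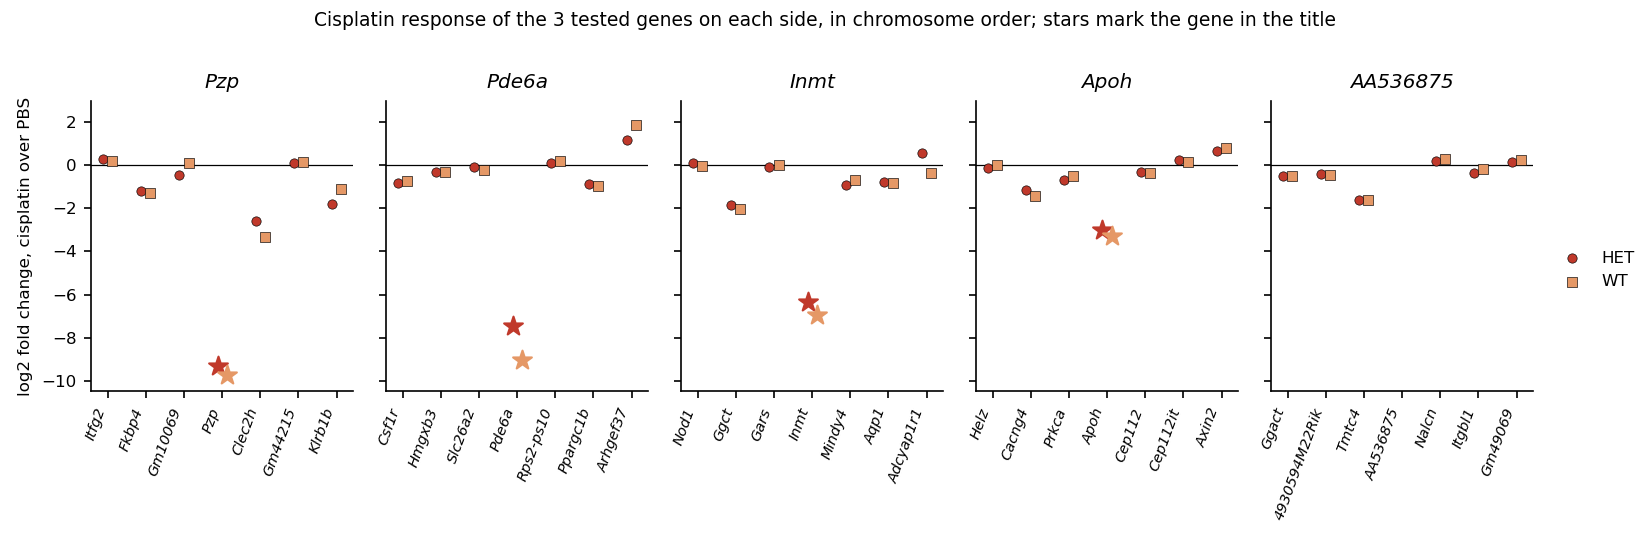
Log2 fold change of cisplatin over PBS for the 3 tested genes on each side of each of the 5 genes, in chromosome order, in HET (circles) and WT (squares) kidneys; stars mark the gene in the title, and AA536875 has no star because its cisplatin libraries hold 0 counts. The neighbours lie between -3.32 and 1.85 over both genotypes, while Pzp, Pde6a and Inmt lie at -6.33 or lower. Apoh, at -3.01 in HET and -3.28 in WT, lies inside the range of the neighbours.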

How the data were processed

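The labels describe bead-based RNA purification, an integrity number above 8 and mRNA libraries. Builds (GRCm38, mm10) and tools (STAR, fastp, featureCounts) are those of the submitters' processing notes, while their versions, the strand setting and the source of fractional counts remain unstated. The authors deposited 3 values per library: expected counts that were not normalized, TPM and FPKM, the last not used here. Of the deposited expected counts, 12.5% were not whole, including 1 value of the 5 genes, and all were rounded before testing. Genes were named by the deposited table, and 55227 of its identifiers matched GENCODE M21 (GRCm38).

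Groups came from the labels. Tests used edgeR 4.0.16 in R 4.3.3 (TMM, filterByExpr by group, 1 model of 4 group means over 31 libraries, Benjamini-Hochberg over all tested genes per contrast, threshold 0.05, prior count 0.125 for fold changes). Log2 CPM for likeness had a prior count of 2. Interval confidence was 95%, exact for pooled counts. DESeq2 1.42.0 and limma 3.58.1 served as alternatives, and the edgeR script was tested on simulated data. P-values measure the spread between animals. The 5 genes, the gene lists and the tests were chosen with earlier results of these data known. Named genes were the 5, Nbl1, from each list up to 4 genes with the highest PBS TPM, the 3 nearest tested genes on each side, and the 3 most alike in level among genes with a PBS mean of at least 1 CPM. A2m, Mug1, Mug2, Pde6b, Pde6g, Alb, Fga, Mup3, Prph2, Pdc, Htr6, Havcr1, Lrp2, Gucy2f, Slc7a12 and Pvalb were named after their values were seen. Genes that this rule names but the text does not are not reported here.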

Additional observations from a re-analysis of the deposited data

Results flagged for a closer look

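Single libraries stood apart from the other 7 of their group in 3 of the 18 sets of values examined. About 1 in 20 sets of normally distributed values does so by chance. Some of the sets are skewed with counts near 0, so that rate may not hold for them. Inmt was 27.0 CPM in HET cisplatin 6, a gap to the next library of 0.827 of the group's whole range. Pde6a was 0.448 CPM in the same library, with a gap of 0.628 of the range. Apoh was 2.44 CPM in WT cisplatin 6, with a gap of 0.569 of the range. For 8 libraries the limit is 0.526. In HET cisplatin 6 the 20 proximal tubule S1 and S2 markers summed to 15872 CPM, the highest of its group, the 12 tubular injury genes to 3415 CPM and the 10 macrophage genes to 50.7 CPM, both the lowest. In WT cisplatin 6 the S1 and S2 markers summed to 14746 CPM, the highest of its group, and the injury genes to 6416 CPM, the lowest. The part of these marker levels in the values was not tested.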

How the results depend on the processing

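Over 565 genotype and interaction values of the 5 genes under alternative settings, none had an adjusted p under 0.05 (lowest 0.1, for Inmt under cisplatin with DESeq2, which replaced the count of HET cisplatin 6), and 540 kept their direction. The 25 that reversed were small. For Pzp under PBS, HET minus WT was -0.0111 with limma voom, -0.0187 with library totals, -0.0276 and -0.0283 with log2(TPM + 1) and log2(TPM + 0.1), and -0.0417 to 0.0673 leaving out each library. For Inmt under PBS it was -0.0181, -0.0237 and -0.0237 with library totals and both TPM settings, and -0.0302 to 0.0271 leaving out each library. For Inmt under cisplatin it was -0.0437 with voom, -0.15 without WT cisplatin 6, HET cisplatin 1 and HET cisplatin 6 (chosen after seeing the data), and -0.168 to 0.734 leaving out each library. With DESeq2 it was 2.98 (adjusted p = 0.1), against 0.606 by edgeR. The DESeq2 value was fitted with the replaced count of HET cisplatin 6, while leaving that library out gave -0.168 by edgeR. The value of 2.98 is therefore not read as a genotype difference. The interaction for Inmt was 2.98 (adjusted p = 0.545) with DESeq2 and the same replaced count, against 0.599 by edgeR. With voom, without the 3 libraries and leaving out each library, it was -0.0464, -0.157 and -0.175 to 0.727. Among animals alone of the number range that holds all HET cisplatin animals, the interaction was -0.0245 for Pzp and -0.187 for Apoh, and leaving out each library gave -0.128 to 0.899 for Apoh. The cause of these reversals was not tested.

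Genes called between HET and WT under cisplatin numbered 1, but 2 with voom, 2 without the 5 libraries against their Nbl1 label and 5 without the 3 libraries; under PBS they numbered 0, but 5 with DESeq2, 2 without the 5 libraries and 0 to 2 leaving out each library. Genes called between cisplatin and PBS stayed within 9858 and 14392 in HET and 9943 and 14693 in WT. In settings chosen after seeing the data, the share left in WT was 0.496% for Pde6a from TPM, and 1.07% and 1.11% for Inmt from library totals and TPM. Over these settings and the left-out libraries, the share left lay between 0.126% and 0.275% in HET and 0.069% and 0.245% in WT for Pzp, between 0.265% and 1.2% in HET for Pde6a and between 0.707% and 1.67% in HET for Inmt. The DESeq2 log2 fold change of Inmt in HET was -3.97, with the replaced count. Fold changes of cisplatin over PBS also changed with the value added before the log. With log2(TPM + 1) they were -4.64 in HET and -4.68 in WT for Pzp, -1.72 and -1.89 for Pde6a, and -1.82 in WT for Apoh. With log2(TPM + 0.1) they were -7.3 and -7.48 for Pzp, and -4.33 and -4.66 for Pde6a. Voom gave -11.4 for Pzp in WT and -8.51 for Pde6a in HET. No paired analysis was possible because each animal has a number of its own and groups share none. Depth limits Pde6a and AA536875 most: 8 and 0 counts in WT cisplatin.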
